A study of Mus musculus with 10 samples.

Results

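The genes described here are 10 that work in cancer cells and in development has reported as direct targets of miR-34 and that act outside the core cell cycle: the receptor tyrosine kinase genes Met, Axl and Pdgfra, the survival gene Bcl2, the deacetylase genes Sirt1 and Hdac1, and the transcription factor genes Myc, Mycn, Lef1 and Snai1. They were chosen by name, as the probe sets to which the platform's annotation gave 1 of these symbols and no other. All 10 were found, on 11 probe sets, among 22180 named genes on 23521 probe sets with a single gene symbol (41345 probe sets in all). Bcl2 had 2 probe sets and the others 1 each. RNA came from the nasal respiratory epithelium of mouse embryos at E16.5, laser-captured from paraffin sections of formalin-fixed tissue, with 1 Affymetrix array per embryo. The groups were 5 wild-type embryos (WT 1 to WT 5), of which WT 3 was male, and 5 triple knockout embryos (TKO 1 to TKO 5) that were miR-34a-/- as well as miR-34b/c-/- and, at the third locus, miR-449a/b/c-/-, of which TKO 2, TKO 4 and TKO 5 were male. The labels give no strain, no litter and no treatment that would set a group apart, so p-values measure the spread between these embryos.

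MicroRNAs of the miR-34 and miR-449 families bind messenger RNAs mainly through their seed, bases 2 to 8 from the 5′ end, and lower the level of the bound RNA or its translation. miR-34a is known as a p53-induced brake on growth, survival and invasion genes in tumour cells, whereas miR-34b/c and miR-449 are known for their abundance in multiciliated cells of the airways. The array reads RNA only, so an effect on translation without one on RNA would not appear in these values.

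The mature 5′ strands of the deleted microRNAs are shown because targets are recognised mainly through the seed. RefSeq's table (GRCm38.p6) held 4 of them, given 5′ to 3′ with the seed in capitals.
miR-34a-5p (chr4:150068473-150068494, + strand): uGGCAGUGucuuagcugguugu
miR-34b-5p (chr9:51103610-51103632, - strand): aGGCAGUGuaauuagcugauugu
miR-449a-5p (chr13:113037549-113037570, + strand): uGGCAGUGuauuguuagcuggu
miR-449c-5p (chr13:113036008-113036028, + strand): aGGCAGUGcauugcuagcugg
All 4 carried the same seed, GGCAGUG, whose perfect match in a target reads CACUGCC, while their lengths (21 to 23 bases) and the bases after the seed differed. Among the 1679 mature mouse microRNAs named in that table, which does not list miR-34c-5p or miR-449b, these 4 had this seed. The 3′ strands of the same hairpins carried other seeds, such as AUCAGCA in miR-34a-3p. Whether each target's transcript holds the match was not analysed here.

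The genotype was read first from the deleted genes. The lowest WT embryo read 6.80 for Mir449c, and the highest TKO embryo 4.39; for Mir449a these values were 6.86 and 5.76. Both genes fell without overlap, with log2 changes (TKO minus WT, labelled sex in the model) of -3.41 and -1.81 (limma adjusted p = 3.08e-05 and 0.000426). Mir449b fell by 0.33 on the log2 scale (limma adjusted p = 0.0259) but stayed bright, at 11.67 to 12.08 over TKO embryos beside 12.13 to 12.23 over WT embryos. Its call was lost in 7 of 24 settings: without WT 3 (limma adjusted p = 0.201), WT 4, TKO 2 or TKO 3 (0.131), with no intensity trend, with the other-cell score and in females alone. Without WT 3, the only WT male, the genotype estimate equals that of females alone (-0.26 for Mir449b), so these 2 settings are not independent. Mir34b had a log2 change of -0.28 (limma adjusted p = 0.129). Its arrays did not overlap, at 5.61 to 5.98 in WT and 5.40 to 5.57 in TKO (exact two-sided permutation p = 0.00794). Mir34a and Mir34c lay below the filter on dim genes, with log2 changes of -0.15 and -0.19 (exact two-sided permutation p = 0.643 and 0.0317). The value of Mir34a was -0.34 without WT 3, -0.092 without WT 4 and -0.052 without TKO 1. The labels do not say whether the probe sets of Mir34a, Mir34b, Mir34c and Mir449b fall inside the deleted stretches, so those values neither bear out nor question the genotype. Over all probe sets the arrays correlated at 0.975 to 0.989. All 11 measured markers of respiratory epithelium lay above the filter on dim genes, Foxj1, the master factor of motile cilia, among them at a mean of 10.86 (WT) and 11.04 (TKO). None of the measured mesenchyme, skeletal muscle, glia or olfactory neuron markers lay below the filter either. Of the 11 respiratory epithelium markers, Ccno and Mcidas, regulators of multiciliated cells, rose (log2 changes 0.76 and 0.55 by limma). In the lists of other cells Tie1 (endothelium), Tnnt3 (skeletal muscle) and Col3a1 (mesenchyme) fell, and no gene of the cartilage and bone, leukocyte, glia or olfactory neuron lists passed. Among all tested genes, 4.39% passed as higher and 1.12% as lower in TKO. All 10 muscle genes and all 8 tested endothelial genes had log2 changes below 0, with medians of -0.59 and -0.29 beside -0.00052 for all genes. The mean of the centred respiratory epithelium markers was higher in TKO by 0.11 (exact two-sided permutation p = 0.0159), and that of the muscle markers differed by -0.52 (exact two-sided permutation p = 0.119). Unlike the limma changes, these differences and their permutation tests left sex out. The first mean includes Ccno and Mcidas, which had the largest changes of its 11 genes. Over these 11 the median log2 change was 0.031, with 7 above and 4 below 0. For the other lists the permutation p ran from 0.214 (glia) to 0.905 (leukocytes), and none of these p-values is adjusted. The part of these lists in the values below was not tested, apart from the covariate fits given there.

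None of the classic targets passed the test. Of the 9 listed genes above the filter on dim genes, 0 had a limma adjusted p below 0.05, where 5.51% of all 16635 genes tested did (4.39% higher and 1.12% lower in TKO). Without adjustment 4 of the 9 had a limma p below 0.05, Sirt1 and Met with higher and Pdgfra and Lef1 with lower estimates, a share of 44.4% where all genes gave 20.9%. The log2 changes ran from -0.56 (Lef1) to 0.33 (Sirt1), 4 above and 5 below 0, with a median of -0.011 where that of all genes was -0.00052. Their median size, whatever the sign, was 0.26, and that of all genes 0.12. The arrays of the genotypes overlapped for every listed gene, Mycn included, whereas 7.60% of all tested genes had arrays that did not (5.54% higher and 2.07% lower in TKO).

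**Figure D1:**
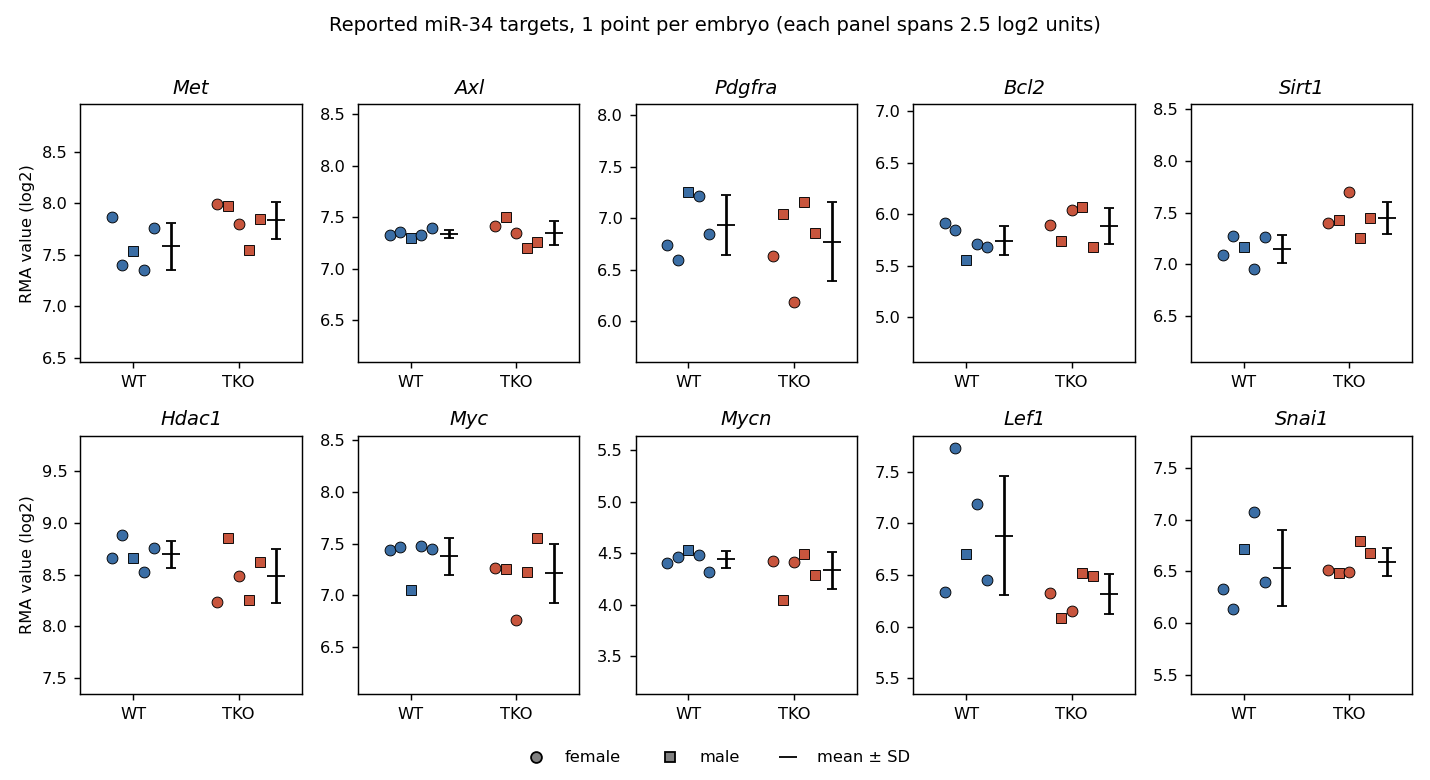
RMA values (log2, vertical axis) of the 10 reported miR-34 targets in each embryo, WT in blue and TKO in red, circles for females and squares for males; bars give the mean and SD of 5 embryos. The genotypes overlap in every panel; Sirt1 comes nearest to separating, with 4 of 5 TKO embryos above all WT embryos, and Lef1 has the widest spread within WT.

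Among the receptors, Met, the receptor of hepatocyte growth factor and a driver of epithelial growth and migration, stood at 7.86, 7.40, 7.54, 7.35 and 7.76 in WT 1 to WT 5. In TKO 1 to TKO 5 it stood at 8.00, 7.97, 7.80, 7.55 and 7.85. The 2 highest TKO embryos exceeded every WT embryo and the other TKO embryos lay within the WT range. Means were 7.58 ± 0.22 (WT) and 7.83 ± 0.18 (TKO; SD, n = 5 each). With sex in the model the log2 change was 0.29, with a 95% interval of 0.0073 to 0.56 (limma adjusted p = 0.226; exact two-sided permutation p without sex = 0.0794). This is 1.22-fold, and the interval, which is not corrected for the number of genes tested, reaches 1.48-fold. Females and males gave similar differences, 0.30 (4 WT and 2 TKO) and 0.26 (1 WT and 3 TKO).

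Axl, a receptor of the TAM family that binds Gas6 and is tied to invasion in tumours, was the steadiest of the set. It read 7.32, 7.35, 7.29, 7.33 and 7.40 in WT 1 to WT 5, and 7.41, 7.51, 7.35, 7.20 and 7.26 in TKO 1 to TKO 5. The TKO embryos straddled the narrow WT range, 2 above it and 2 below it. Around means of 7.34 ± 0.04 (WT) and 7.35 ± 0.12 (TKO; SD, n = 5 each), the log2 change was 0.029 (95% interval -0.14 to 0.20; limma adjusted p = 0.875), so that the interval leaves TKO between 0.907 and 1.15 times the WT level. The sign turned to -0.011 after a further quantile normalisation.

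Pdgfra, the platelet-derived growth factor receptor known chiefly from mesenchymal cells, measured 6.74, 6.60, 7.26, 7.21 and 6.84 in WT 1 to WT 5. The TKO embryos measured 6.63, 7.04, 6.19, 7.16 and 6.86, so that only TKO 3 fell outside the WT range. Means were 6.93 ± 0.29 and 6.77 ± 0.38 (SD, n = 5 each), and the log2 change with sex in the model was -0.37 (95% interval -0.67 to -0.065; limma adjusted p = 0.152). Without TKO 3 it was -0.23 (limma adjusted p = 0.51). Without sex it was -0.16 (limma adjusted p = 0.692; exact two-sided permutation p = 0.492). Males minus females gave 0.53 in the model (limma adjusted p = 0.415 for sex).

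Pdgfra was set beside markers of mesenchyme, the tissue under the epithelium. A score of 11 other mesenchyme genes, the mean of values centred per gene, ran from -0.41 to 0.48 over WT and from -0.85 to 0.57 over TKO embryos, lowest in TKO 3 and highest in TKO 4. Over the 10 arrays Pdgfra correlated with this score at r = 0.943 (permutation p = 5e-05, adjusted over the 10 listed genes 0.0005) and rho = 0.915 (permutation p = 0.00056, adjusted 0.0056). Without TKO 3 and TKO 1, the arrays farthest from the score's median, r was 0.890, and on deviations from the genotype means it was 0.948. The score also differed with sex: it was positive in every male (0.19 in TKO 2 to 0.57 in TKO 4) and, among females, only in WT 4. Sex was not taken out of these correlations, so the part of sex in them was not tested. Of all genes tested, Pdgfra and the 11 genes of the score included, 0.162% had an r with the score at least as high as that of Pdgfra. The other listed genes gave no r that passed the adjustment; the next was Snai1 (r = 0.667, adjusted p = 0.17; rho = 0.685, adjusted p = 0.176; permutation tests), whose r was 0.925 without TKO 3 and TKO 1.

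None of the mesenchyme genes was below the filter on dim genes. Their summed level, as log2 of the sum, ran from 11.2 to 13.1 in WT and from 10.9 to 13.1 in TKO, and 3 of the 11 had a higher mean in TKO. With sex in the model all 11 had log2 changes below 0, and Col3a1, a fibrillar collagen, passed (-0.48; limma adjusted p = 0.0234). With a score of 6 lists of other cells (mesenchyme, endothelium, skeletal muscle, cartilage and bone, leukocytes, glia) as a covariate, the log2 change of Pdgfra was -0.14 (limma adjusted p = 0.774). In bulk samples such as these, fewer cells of a type and less RNA per cell cannot be told apart.

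**Figure D2:**
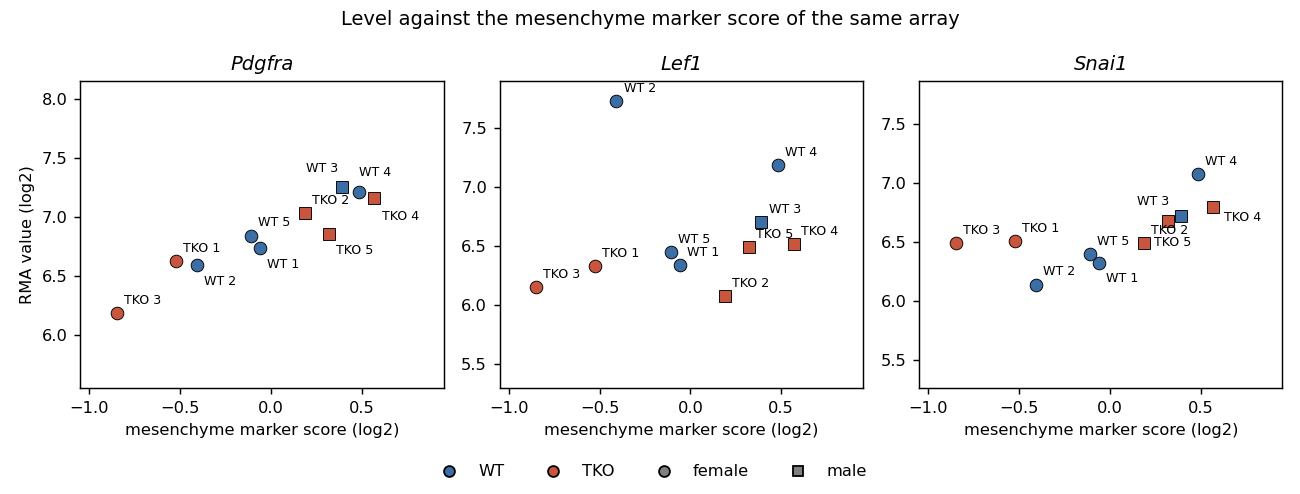
RMA values (log2, vertical axis) of Pdgfra, Lef1 and Snai1 against the mesenchyme marker score of the same array (mean of 11 centred log2 values, horizontal axis), WT in blue and TKO in red, circles for females and squares for males. Pdgfra rises with the score across both genotypes (r = 0.943), while the highest Lef1 value belongs to WT 2, whose score is the lowest of the WT embryos.

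The ligands and partners of these receptors did not pass either. Of 14 tested genes of the MET axis, which holds the ligand-processing proteases, their inhibitors and the adaptors, none passed: Cblb, a ubiquitin ligase that removes active receptors, had a log2 change of -0.22 (limma adjusted p = 0.234), and Gab1, the docking protein of MET, 0.17 (limma adjusted p = 0.287). Hgf, the ligand itself, was below the filter on dim genes in this tissue. All 4 TAM genes had estimates below 0 and none passed, with Gas6, the ligand, at -0.42 (limma adjusted p = 0.141), Pros1, the other ligand, at -0.25, and the receptors Mertk and Tyro3 at -0.098 and -0.036. Pdgfrb, the sister receptor of Pdgfra and likewise reported as a miR-34 target, was at -0.055 (limma adjusted p = 0.905). The ligand genes Pdgfc and Pdgfa were at 0.14 and 0.092, and none of the 4 tested genes of the PDGF list passed.

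Bcl2 encodes the mitochondrial protein that holds apoptosis in check. Its probe set with the higher mean read 5.91, 5.84, 5.56, 5.72 and 5.68 in WT 1 to WT 5 and 5.89, 5.74, 6.05, 6.07 and 5.68 in TKO 1 to TKO 5. Only TKO 3 and TKO 4 exceeded the WT range. Means were 5.74 ± 0.14 (WT) and 5.89 ± 0.17 (TKO, SD, n = 5 each). With sex in the model the log2 change was 0.21 (95% interval -0.011 to 0.44; limma adjusted p = 0.263), or 1.16-fold. The further probe set of Bcl2 had means of 5.57 ± 0.25 (WT) and 5.61 ± 0.18 (TKO), a log2 change of 0.030, and the mean of both probe sets gave 0.12 (limma adjusted p = 0.504).

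In the BCL2 family 1 of 13 tested genes rose and none fell, where 4.39% and 1.12% of all tested genes did. The gene that rose was Hrk, a BH3-only activator of apoptosis, with means of 5.46 ± 0.15 (WT) and 6.12 ± 0.09 (TKO; SD, n = 5 each). Its WT arrays spanned 5.21 to 5.59 and its TKO arrays 6.05 to 6.27. They did not overlap, as was so for 5.54% of all tested genes with higher arrays in TKO. The increase was 1.57-fold (log2 change 0.65; limma adjusted p = 0.00393). Bbc3, another BH3-only gene and a p53 target, was at -0.64 and missed the threshold (limma adjusted p = 0.0629). The close relatives of Bcl2 that also block apoptosis, Bcl2l1 and Mcl1, were at -0.15 and 0.11. The call of Hrk was lost with the other-cell score as a covariate (log2 change 0.57; limma adjusted p = 0.0843) and in females alone (log2 change 0.74; limma adjusted p = 0.0754).

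Sirt1, the NAD-dependent deacetylase that acts on p53 and on histones, came nearest to the threshold. It measured 7.09, 7.27, 7.16, 6.95 and 7.26 in WT 1 to WT 5, and 7.40, 7.43, 7.70, 7.26 and 7.45 in TKO 1 to TKO 5. TKO 4 alone lay within the WT range, and the other 4 TKO embryos lay above it. Means were 7.15 ± 0.13 and 7.45 ± 0.16 (SD, n = 5 each), and the log2 change was 0.33 (95% interval 0.12 to 0.55), or 1.26-fold. It did not pass over all genes (limma p = 0.00595, adjusted p = 0.0768; exact two-sided permutation p = 0.0238). The difference was 0.40 among females and 0.22 among males. With the other-cell score as a covariate it was 0.16 (limma adjusted p = 0.564), and without TKO 3, the highest embryo, 0.23 (limma adjusted p = 0.317).

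No sirtuin gene passed. Among 10 tested genes of the sirtuins and of NAD supply none rose and 1 fell, where 4.39% and 1.12% of all tested genes did. The gene that fell was Nmnat2, an enzyme that makes NAD and is best known from axons. It went from 6.63 ± 0.11 to 6.22 ± 0.13 (SD, n = 5 each), from 6.50 to 6.75 over WT arrays and from 6.02 to 6.34 over TKO arrays, with no overlap (log2 change -0.39; limma adjusted p = 0.0372). The mitochondrial sirtuin gene Sirt3 was at -0.21 (limma adjusted p = 0.141), and Sirt2 at -0.16 (limma adjusted p = 0.172). Arrays of both lay lower in TKO without overlap, as did 2.07% of all tested genes. Sirt3 spanned 7.80 to 8.05 in WT and 7.60 to 7.79 in TKO, and Sirt2 8.60 to 8.73 and 8.42 to 8.58. Of the list's 10 estimates 3 were above and 7 below 0. The call of Nmnat2 was lost in 9 of 24 other settings. These were the fits without WT 1, WT 3, WT 4, TKO 1, TKO 2, TKO 3 or TKO 5, with the other-cell score and in females alone. The estimate was -0.27 without WT 3, which is that of females alone.

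Hdac1, the class I histone deacetylase of the SIN3, NuRD and CoREST corepressors, was the only chromatin gene of the set besides Sirt1. It measured 8.66, 8.88, 8.66, 8.53 and 8.76 in WT 1 to WT 5 and 8.24, 8.85, 8.48, 8.25 and 8.63 in TKO 1 to TKO 5. Its TKO values were the more scattered: 3 lay below every WT embryo, while TKO 2 was near the top of the WT range. The mean went from 8.70 ± 0.13 to 8.49 ± 0.26 (SD, n = 5 each). With sex in the model the log2 change was -0.26 (95% interval -0.53 to 0.019; limma adjusted p = 0.275). The upper end of the interval is 1.01 times the WT level. The log2 change was -0.16 without TKO 1 (limma adjusted p = 0.614) and -0.44 with the other-cell score as a covariate (limma adjusted p = 0.211). Among 21 deacetylases and corepressor subunits none passed. Mta2, a NuRD subunit, was at 0.38 (limma adjusted p = 0.0601), Sin3b at -0.19, and Hdac2, the paralogue that shares Hdac1's complexes, at 0.11 (95% interval -0.14 to 0.35).

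Among the transcription factors, Myc, which drives ribosome production and growth, gave 7.44, 7.47, 7.05, 7.47 and 7.45 in WT 1 to WT 5. In TKO 1 to TKO 5 it gave 7.27, 7.25, 6.76, 7.22 and 7.55. The 4 WT females lay between 7.44 and 7.47, and WT 3, the only WT male, lay below them. TKO 3 was the lowest array and TKO 5 the highest. Means were 7.38 ± 0.18 and 7.21 ± 0.28 (SD, n = 5 each), and the log2 change was -0.18 (95% interval -0.50 to 0.15; limma adjusted p = 0.55). That value moved with the embryos included. It was 0.042 without TKO 3 (limma adjusted p = 0.916). Without WT 3 it was -0.44 (limma adjusted p = 0.169), the estimate of females alone, since no WT male then remained beside the TKO males.

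Mycn, the family member of embryonic and neural progenitors, was dim throughout, with a mean below the filter at 4.58, and was read from the fit over all 22180 genes, in which 3.51% passed (2.82% higher and 0.690% lower in TKO). It was 4.40, 4.46, 4.53, 4.49 and 4.32 in WT 1 to WT 5, and 4.43, 4.05, 4.42, 4.49 and 4.29 in TKO 1 to TKO 5. TKO 2 was the lowest array and the rest lay close together. The log2 change was -0.089 (95% interval -0.33 to 0.15; limma adjusted p = 0.753), on 4.44 ± 0.08 and 4.33 ± 0.18 (SD, n = 5 each).

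The rest of the MYC network did not pass. Of 13 tested partners, antagonists and regulators of MYC none did, with Mga, a repressor that pairs with MAX, at 0.24 (limma adjusted p = 0.0941), Mxi1, a MAX-binding antagonist, at -0.20 and Mycl at 0.21. Among 14 tested genes that MYC is known to activate, 2 rose, 1 fell and 11 did not pass. Of all tested genes 4.39% rose and 1.12% fell. Eif4e, the cap-binding translation factor, rose 1.38-fold with sex in the model (limma adjusted p = 0.0191), on means of 7.82 ± 0.18 and 8.20 ± 0.17. Nop58, a core protein of the small nucleolar ribonucleoproteins, rose 1.31-fold in the same fit (limma adjusted p = 0.0221), on means of 8.74 ± 0.15 and 9.08 ± 0.12. Cdk4, which is also a reported miR-34 target, fell by 0.33 on the log2 scale (limma adjusted p = 0.0139). The list's median was 0.099. The calls of Eif4e, Nop58 and Cdk4 were all lost in the same 4 settings. These were the fits without WT 3 (limma adjusted p = 0.177, 0.159 and 0.123), without TKO 3 (0.0565, 0.102 and 0.0563), in females alone and with the other-cell score. Without WT 3 and in females alone the genotype estimates are the same.

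Lef1, the DNA-binding partner of beta-catenin in WNT signalling and a marker of budding glands and hair, had the largest estimate and the widest spread. It stood at 6.34, 7.73, 6.71, 7.19 and 6.45 in WT 1 to WT 5 and at 6.33, 6.08, 6.15, 6.52 and 6.49 in TKO 1 to TKO 5. WT 2 and WT 4 were high, and WT 1 and WT 5 were level with the TKO embryos. All 5 TKO embryos were below the WT mean, and 3 were below every WT embryo. Means were 6.88 ± 0.58 and 6.31 ± 0.20 (SD, n = 5 each); the log2 change was -0.56 (95% interval -1.12 to -0.0059; limma adjusted p = 0.233; exact two-sided permutation p = 0.0635). It was -0.39 without WT 2 (limma adjusted p = 0.251). WT 2, the brightest for Lef1, had the lowest mesenchyme score among WT embryos (-0.41) and WT 4 the highest (0.48), and with the other-cell score as a covariate the estimate was -0.82 (limma adjusted p = 0.308).

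No TCF gene and no core component of the WNT pathway passed, 0 of 11 tested. Lrp5, a WNT co-receptor, was at 0.19 (limma adjusted p = 0.0837). Its arrays lay higher in TKO without overlap (WT 8.19 to 8.24, TKO 8.34 to 8.47), as did those of 5.54% of all tested genes. Pygo2, a coactivator of beta-catenin, was at 0.25, and Tcf7l1 and Tcf7l2, relatives of Lef1, were at 0.065 and 0.14. Of 12 genes that WNT signalling is known to activate, 1 rose and none fell. It was Znrf3, a ubiquitin ligase that removes WNT receptors, with means of 7.53 ± 0.15 (WT) and 7.84 ± 0.13 (TKO; SD, n = 5 each; 1.31-fold; limma adjusted p = 0.0213). The call of Znrf3 was lost in 6 of 24 settings, without WT 3, TKO 1 or TKO 3, without sex, in females alone and with the other-cell score. Of these, the fit without WT 3 and that in females alone share their estimate. The list's median was -0.10.

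Snai1, the repressor of E-cadherin that starts the epithelial to mesenchymal switch, had an estimate near 0. It gave 6.33, 6.14, 6.72, 7.07 and 6.40 in WT 1 to WT 5 and 6.51, 6.49, 6.50, 6.80 and 6.68 in TKO 1 to TKO 5. The TKO embryos all lay inside the WT range. Means were 6.53 ± 0.37 and 6.59 ± 0.14 (SD, n = 5 each), and the log2 change was -0.011 (95% interval -0.37 to 0.35; limma adjusted p = 0.979). Its sign turned in 9 of 24 settings, the shift of arrays to a common median among them (0.019). The interval leaves TKO between 0.774 and 1.27 times the WT level.

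None of 4 tested SNAIL, ZEB and TWIST genes passed: Zeb1 was at -0.22 and Snai2 at -0.13. E-cadherin (Cdh1), the gene SNAI1 represses, had means of 10.47 ± 0.06 (WT) and 10.40 ± 0.08 (TKO; SD, n = 5 each; log2 change -0.088, limma adjusted p = 0.47). Of 11 tested epithelial and mesenchymal genes of this switch none passed; Vim, the filament protein of mesenchymal cells, was at -0.36 (limma adjusted p = 0.051) and Cdh11, a mesenchymal cadherin, at -0.53 (limma adjusted p = 0.0984). The part of the mesenchyme markers in these values was not tested.

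**Figure D3:**
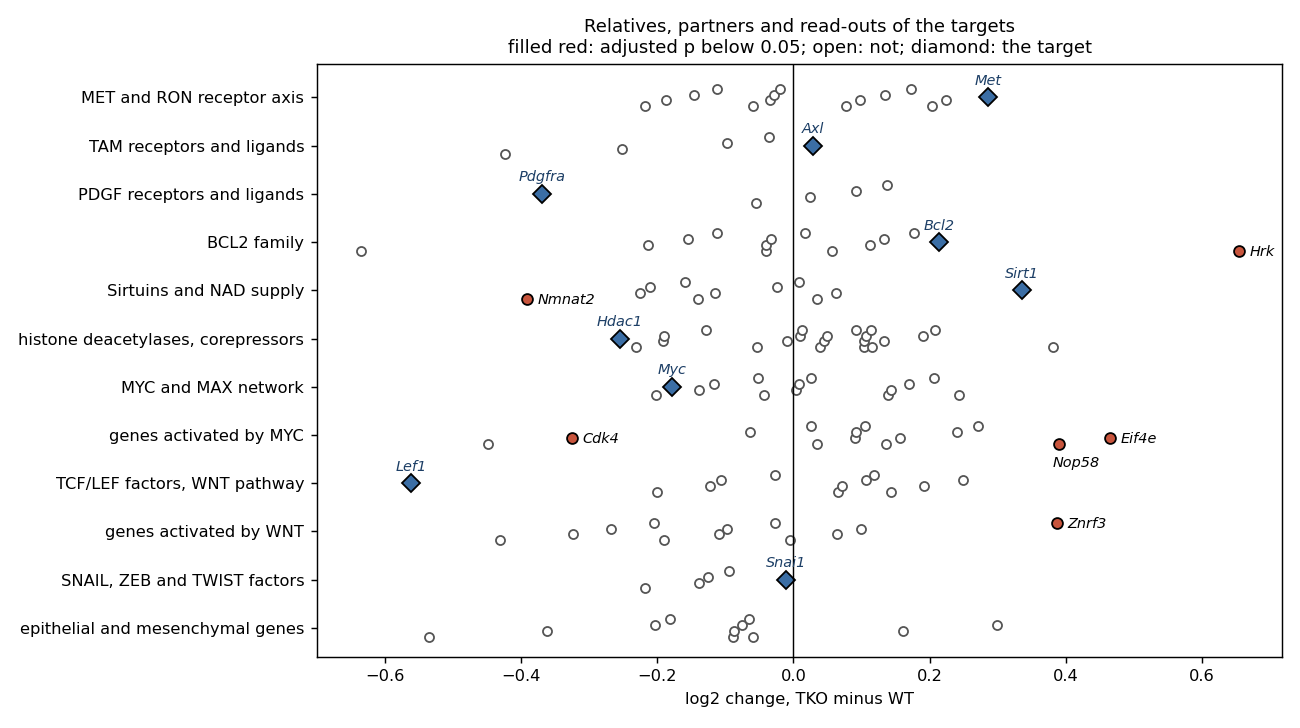
Log2 change, TKO minus WT (horizontal axis, from limma with sex in the model), of the tested genes in the lists of relatives, partners and read-outs, 1 list per row. Blue diamonds are the targets themselves, red points the genes with an adjusted p below 0.05; 6 of 131 distinct list genes are red (Cdk4, Eif4e, Hrk, Nmnat2, Nop58 and Znrf3).

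In all, these lists held 131 tested genes, of which 4 rose and 2 fell, 4.58% where all genes gave 5.51%.

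Reported targets of the cell cycle and of Notch signalling, measured on the same arrays, gave other counts. Of 13 tested, 4 rose and 1 fell, with a median of 0.16, where 5.51% of all genes passed (4.39% higher and 1.12% lower in TKO). The lists were chosen with earlier results of these data known, so their counts are not an independent comparison. Jag1, a Notch ligand, rose 1.67-fold (limma adjusted p = 0.00372; WT 7.64 to 8.03, TKO 8.23 to 8.65), and Cdk6, a G1 kinase, Ccnd3, its cyclin partner, and E2f5, a factor of multiciliated cells, rose 1.53-fold, 1.48-fold and 1.47-fold. With the other-cell score as a covariate Jag1 and E2f5 lost their calls (limma adjusted p = 0.0731 and 0.107), as they did in females alone (0.0772 and 0.0983), while Cdk6 and Ccnd3 passed in all 24 settings and Cdk4 lost its call in the 4 settings given above. The difference between the lists was not tested. The upper ends of the 95% intervals of the 10 targets ran from -0.065 (Pdgfra) to 0.56 (Met). Those of Lef1, Bcl2 and Sirt1 were -0.0059, 0.44 and 0.55. Jag1, Cdk6, Ccnd3 and E2f5 had estimates of 0.55 to 0.74, with lower interval ends from 0.36 (E2f5) to 0.50 (Jag1). These 4 genes were singled out because they passed, which favours large estimates. The other tested genes of their list had estimates from -0.33 (Cdk4) to 0.23 (Notch2).

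**Figure D4:**
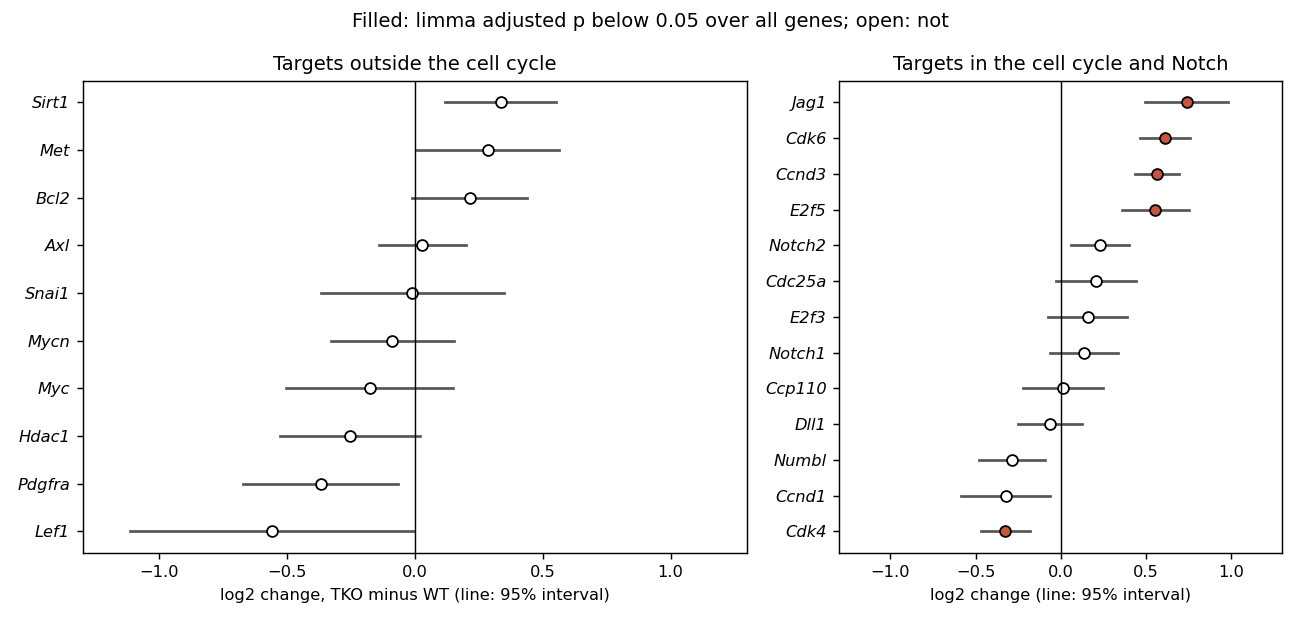
Log2 change, TKO minus WT (horizontal axes), with 95% intervals from limma, of the 10 targets outside the cell cycle (left) and of the 13 tested targets of the cell cycle and Notch (right); filled points have an adjusted p below 0.05. None of the points on the left is filled, and on the right Jag1, Cdk6, Ccnd3 and E2f5 are filled above 0 and Cdk4 below.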

How the data were processed

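The deposited values are on a log2 scale, as their range (1.50 to 13.7) shows. RMA and Affymetrix's Expression Console are the tools that the submitters' processing notes name for the authors' own steps; software version, genome build and summary level were not stated in these sources. Genes were named from the platform's annotation, 1814 probe sets with several symbols and 16010 with none being left out. For each gene the probe set with the highest mean was kept, and genes with a mean below the 25th percentile (4.58) were left out; Mycn, Mir34a and Mir34c were read without that filter. The test was limma 3.58.1 (R 4.3.3) with labelled sex and genotype (variances with an intensity trend, two-sided, Benjamini-Hochberg over all genes, threshold 0.05), with exact permutation over the 252 assignments of the arrays for single genes. The permutation tests, used also for the means of marker lists, left sex out. Log2 changes and fold changes come from the limma model, so they can differ from the gap between the printed means. The listed genes and the pathway lists were chosen with earlier results of these data known. The named genes are all 10 targets, the deleted microRNAs, the closest relatives of the targets and, from each list, the genes that passed or else those with the smallest p. Bbc3, Sirt2, Sirt3, Cdh1, Foxj1 and Hgf fall outside that rule and were chosen after their values were seen. The correlations with the mesenchyme score (100000 permutations), the olfactory covariate and the interaction with sex were chosen after seeing the data. The script was tested on simulated data. Figures were drawn with matplotlib 3.10.9. The number of arrays limits the precision.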

Additional observations from a re-analysis of the deposited data

Results flagged for a closer look

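Myc in WT 3, at 7.05, lay apart from the other 4 WT embryos, which lay between 7.44 and 7.47. Mir449b in TKO 1, at 12.08, lay apart from the other 4 TKO embryos, between 11.67 and 11.76. These were the 2 such embryos in 34 sets of 5 arrays, where chance gives about 1 in 20. The change of Myc also ran opposite ways in the sexes: both TKO females were below all 4 WT females, by 0.44 on average, while all 3 TKO males were above the single WT male, by 0.29 on average. The genotype effect in males minus that in females was 0.73 (limma interaction, adjusted p = 0.994 over all genes) and rests on 1 WT male, WT 3, the same embryo that lay apart.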

How the results depend on the processing

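Of the targets with a value, none passed in any of 24 other settings except with the replicate block, where 1 did, Sirt1 (0.36, limma adjusted p = 0.03). Bcl2 had a value in 23 of these settings and Mycn in 22: the filter at the 50th percentile left out both, and the fit of every probe set on its own left out Mycn. The numbers did not pair the embryos: same-numbered embryos deviated together at -0.085, -0.059, -0.13, 0.38 and -0.063. The block gave 9 calls in the pathway lists and 282 genes lower in TKO, against 186. Genes lower in TKO were 121 with arrays shifted to a common median, which moved the median of all genes to 0.030 (793 were higher, against 730), and 288 with the olfactory score, which gave 10 pathway calls. With the other-cell score 110 genes passed (95 higher, 15 lower), and in females 56 (52 higher, 4 lower); both left 0 pathway calls against 6. Leaving out each embryo gave 210 to 1284 genes (191 to 886 higher, 19 to 398 lower), 1 to 9 pathway calls and 0 targets. The lowest counts were those without WT 3, and without TKO 3 the pathway calls were 2. WT 3 was the only WT male, so with sex in the model the fit without it compares the genotypes in females only. Its genotype estimates are those of the fit in females, and these 2 settings are not independent. Signs turned for Snai1 without sex (0.063), with the block (0.0063), the common median (0.019), the other-cell (0.29) and olfactory scores (0.0064), in females (0.019) and without WT 3 (0.019), WT 4 (0.11) or TKO 2 (0.019). They turned for Axl with quantile normalisation (-0.011), the other-cell score (-0.017) and without TKO 2 (-0.0016), for Mycn in females and without WT 3 (0.0050), and for Myc without TKO 3 (0.042). Over the fits without 1 embryo Axl ran from -0.0016 to 0.049, Myc from -0.44 to 0.042, Mycn from -0.12 to 0.0050 and Snai1 from -0.084 to 0.11. The cause of these shifts was not tested. Scanner files were not used here, so signal over background was not read.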
